A study of Mus musculus with 32 samples.

Results

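Wild-type macrophages kept in normal M-CSF were compared with and without LPS, the lipopolysaccharide of the outer membrane of Gram-negative bacteria. This used 8 of the 32 libraries of the series, chosen by their labels alone: genotype WT, medium normal M-CSF, and LPS or no LPS, with 4 libraries in each group. The cells were bone marrow-derived macrophages of C57BL/6 mice, grown from marrow precursors in culture, and no engineered allele is named for them. The LPS group received 10 ng/ml LPS for 4 hours and the untreated group received none. Both groups had been kept overnight in complete RPMI with LCCM, taken here as 10% because no label ties the names low and normal to the 0.5% and 10% of the protocol. Responses were set against those of WT cells in low M-CSF (taken as 0.5% LCCM) and of Trem2-/- cells (T2KO in the labels, also C57BL/6) in normal M-CSF, each with and without LPS and with 4 libraries a group. The Trem2-/- cells lack TREM2, a lipid-sensing receptor of macrophages. Nothing in the labels ties a library to its own mouse or culture, so a p here measures only library-to-library spread, which may be technical.

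LPS is handed by the lipid-binding proteins LBP and CD14 to TLR4 and its partner MD-2 (gene Ly96). From the plasma membrane the complex signals through the adaptors TIRAP and MyD88 to IRAK and TRAF kinases and ligases, which free NF-kB from its IkB inhibitors and switch on MAP kinases. From endosomes it signals through TRAM and TRIF to TBK1 and IRF3, which turn on Ifnb1. Secreted interferon-beta then acts back on the cells through IFNAR, STAT factors and IRF9, which bind interferon-stimulated response elements (ISREs) in the promoters of antiviral genes. M-CSF, acting through CSF1R, keeps these macrophages alive and dividing.

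Promoter sequences are shown for genes at both arms of this pathway, to show the letters of the ISRE and of the NF-kB site that were counted over all promoters. Each is the 250 bases before the RefSeq start site on GRCm38.p6 (the mm10 chromosomes), read 5′ to 3′ on the gene's own strand. Capitals mark an NF-kB pattern (GGGNNNTTCC, or GGAANNNCCC on the other strand) or an ISRE pattern (GAAANNGAAA, or TTTCNNTTTC on the other strand). The start sites are those of the reference and were not measured. Rsad2, the antiviral enzyme viperin (chr12:26456453-26456702, minus strand), and Ifi205, an interferon-inducible p200 family protein (chr1:174031756-174032005, minus strand), each held 1 ISRE pattern. Cxcl3, a chemokine of neutrophils (chr5:90785851-90786100, plus strand), held 3 matches of the NF-kB pattern. These were overlapping matches on both strands of 1 stretch, and 1 more downstream. Nfkbia, the gene of IkB-alpha (chr12:55492648-55492897, minus strand), held 1 close to the start site. Cxcl3 and Nfkbia were picked after the counts of patterns were seen. In Il12b, the shared subunit of IL-12 and IL-23 (chr11:44399813-44400062, plus strand), neither pattern occurred in this window, nor did it in Il1b, Ccl17, Ccl22, Sox4 or Gcnt1.
Rsad2: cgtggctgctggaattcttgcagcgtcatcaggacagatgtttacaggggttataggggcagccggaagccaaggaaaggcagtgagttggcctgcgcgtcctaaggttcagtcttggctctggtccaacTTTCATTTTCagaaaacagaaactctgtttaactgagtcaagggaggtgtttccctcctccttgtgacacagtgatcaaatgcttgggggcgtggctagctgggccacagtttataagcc
Ifi205: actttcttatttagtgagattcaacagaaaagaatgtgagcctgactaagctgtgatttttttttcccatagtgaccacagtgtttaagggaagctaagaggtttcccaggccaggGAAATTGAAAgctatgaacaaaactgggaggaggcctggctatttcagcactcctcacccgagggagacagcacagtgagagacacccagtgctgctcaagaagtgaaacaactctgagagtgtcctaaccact
Cxcl3: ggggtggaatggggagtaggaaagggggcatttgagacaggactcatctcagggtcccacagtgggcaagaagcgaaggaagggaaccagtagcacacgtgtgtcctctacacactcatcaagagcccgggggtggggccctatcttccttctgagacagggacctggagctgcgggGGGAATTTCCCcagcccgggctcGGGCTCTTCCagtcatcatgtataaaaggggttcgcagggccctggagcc
Nfkbia: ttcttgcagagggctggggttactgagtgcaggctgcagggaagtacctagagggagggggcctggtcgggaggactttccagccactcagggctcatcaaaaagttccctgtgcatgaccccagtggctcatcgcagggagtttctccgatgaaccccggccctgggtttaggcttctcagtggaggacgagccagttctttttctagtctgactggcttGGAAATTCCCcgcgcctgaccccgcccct
Il12b: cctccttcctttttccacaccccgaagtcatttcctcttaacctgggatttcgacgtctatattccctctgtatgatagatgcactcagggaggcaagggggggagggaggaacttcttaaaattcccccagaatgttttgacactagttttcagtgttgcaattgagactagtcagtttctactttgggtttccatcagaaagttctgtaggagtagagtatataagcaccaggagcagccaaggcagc

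Of all 27025 mouse promoter windows in the RefSeq table, 4.60% held the NF-kB pattern and 3.04% the ISRE pattern on either strand. Among the genes tested here, 264 that rose at least 8-fold had a window, and 10.2% of these held the NF-kB pattern and 14.8% the ISRE pattern. The 5822 genes that did not pass the test held them in 4.83% and 2.16% of windows, and the 1626 genes that fell in 4.55% and 2.03%. Within the interferon response list 14 of 45 windows (31.1%) held the ISRE pattern, and within the NF-kB and IkB list 4 of 8 held the NF-kB pattern. These shares describe letters in a window and are not measured binding sites.

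Mir155 is the gene of a microRNA that is induced by TLR signalling. Its product mmu-miR-155-5p (RefSeq, GRCm38.p6, chr16:84714143-84714165, plus strand) has the mature sequence below, with its seed, bases 2 to 8, in capitals.
mmu-miR-155-5p: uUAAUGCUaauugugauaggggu
The libraries captured polyadenylated RNA, so the counts of Mir155 are of a longer polyadenylated transcript and not of this mature RNA. They were 83.3, 346, 106 and 302 CPM in the LPS libraries, against 0.311, 0.608, 0.306 and 1.13 CPM in the untreated ones. Every LPS library lay above every untreated library, with a log2 fold change of 8.57 ± 0.48 (SE, edgeR quasi-likelihood adjusted p = 1.51e-17). This gap was a condition of its choice, as for the other largest rises below. The SE is the size of the log2 fold change divided by the square root of the test's F value. It is approximate where a group holds few counts.

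LPS changed the level of 4061 of the 11244 genes tested (36.1%) at an edgeR adjusted p under 0.05, with 2053 higher (18.3%) and 2008 lower (17.9%). In 2167 genes (19.3%) every LPS library lay above every untreated one, and in 2085 (18.5%) below. Large rises outnumbered large falls: 339 genes (3.01%) rose and 100 (0.889%) fell at least 8-fold (log2 of 3), and 119 (1.06%) rose and 7 (0.0623%) fell at least 32-fold (log2 of 5). Genes called higher took 41.7% to 44.5% of all counts in the LPS libraries and 21.1% to 22.1% in the untreated ones. The 119 genes alone took 6.67% to 7.96% and 0.0860% to 0.128%. LPS libraries held 4137581 to 11415752 counts and untreated libraries 5554661 to 12995945. Levels are CPM (counts per 1000000) scaled by TMM, whose factors were 0.911 to 1.01 with LPS and 1.27 to 1.37 without, and group means are given ± SD (n = 4 libraries each). The first axis of a multidimensional scaling plot held 72.1% of the variation and separated the groups. LPS library 4, the shallowest, stood apart on the second axis (7.90%). By chi-squares of their counts, which also grow with depth, libraries 1 and 3 of the LPS group were close, and so were 2 and 4. These pairs gave 5.34 and 7.23 per degree of freedom, against 10.3 to 35.2 for its other pairs. In the untreated group libraries 2 and 4 were close (5.04) and the other pairs were not (19.9 to 86.0). By the SD of log2 CPM differences, LPS libraries 1 and 3 (0.377) and untreated libraries 2 and 4 (0.324) were again the closest of their groups. LPS libraries 2 and 4 (0.446) were by that measure no closer than 1 and 2 (0.445). The labels do not say whether close libraries share a culture. Untreated library 1 lay outside the range of the other untreated libraries by a wide gap in 17 of the genes whose levels are given here, mostly as the highest. Without it 3944 genes passed, 1922 higher and 2022 lower. Lower genes were also more numerous without untreated library 2 (1780 higher, 1816 lower), 3 (1820 and 1887) or 4 (1804 and 1866). Without any 1 LPS library, higher genes remained more numerous. More genes were also lower than higher with DESeq2's median-ratio scaling (RLE) in edgeR (1825 higher, 2273 lower) and with DESeq2 itself (1934 and 2542). With each group's libraries 1 and 3, and 2 and 4, summed to leave 2 a group, 2594 genes passed (1406 higher, 1188 lower), and 62.9% of the 4061 calls were kept.

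**Figure D1:**
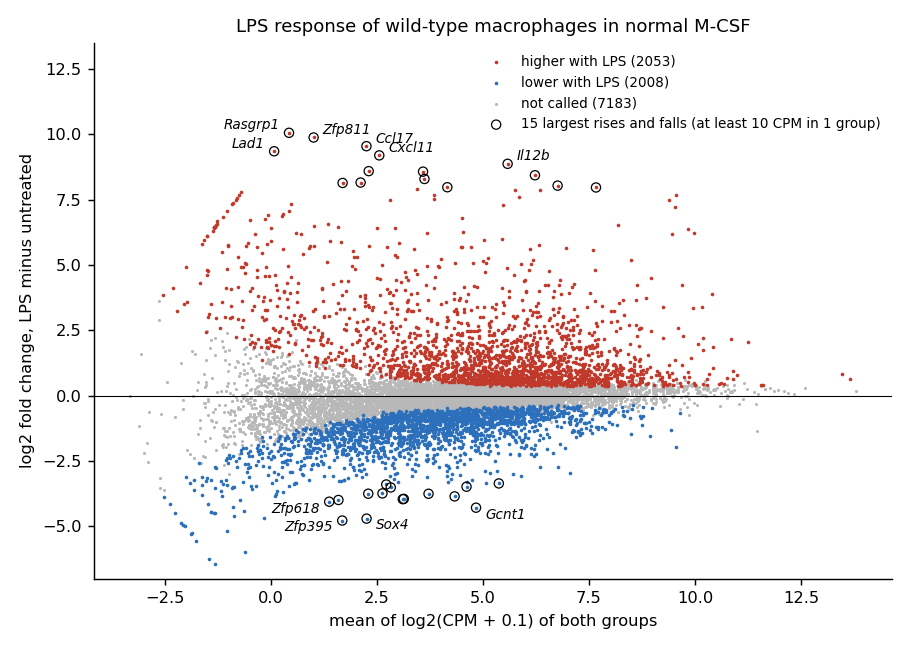
Log2 fold change (LPS minus untreated, y axis) against the mean over both groups of the log2 of CPM plus 0.1 (x axis) for the 11244 genes tested. Genes higher or lower at an edgeR adjusted p under 0.05 are coloured, and the 15 largest rises and falls of well-expressed genes are marked and the first of them named. The rises extend to a log2 of about 10, while the falls of well-expressed genes end above a log2 of -5.

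The 15 largest rises among well-expressed genes (at least 10 CPM in 1 group) included cytokines, chemokines and other secreted proteins. They were taken only from genes without overlap between the groups, so such gaps, here and below, are part of the choice. Ccl17, a chemokine for CCR4, counted 72.0, 110.4, 87.3 and 142 CPM in the LPS libraries, against 0.0777, 0.182, 0.0765 and 0.141 CPM in the untreated ones, a log2 fold change of 9.54 ± 0.57 (SE, adjusted p = 7.71e-17). Il12b lies on chromosome 11 at 44400063 to 44414677 (mm10). It stood at 629, 1485, 771 and 1203 CPM in the LPS libraries, against 2.64, 2.55, 1.53 and 1.83 CPM in the untreated ones. All 4 LPS libraries of both genes lay above all untreated ones, and the log2 fold change of Il12b was 8.87 ± 0.40 (SE, adjusted p = 1.99e-20). Cxcl11, a ligand of CXCR3, averaged 126 ± 27.3 CPM with LPS and 0.172 ± 0.157 CPM without. Nos2, the inducible nitric oxide synthase (chromosome 11 at 78920787 to 78960226), averaged 84.4 ± 20.9 CPM with LPS and 0.188 ± 0.206 CPM without. Ptgs2, the prostaglandin-making cyclooxygenase COX-2, averaged 1373 ± 289.8 CPM with LPS and 3.97 ± 2.31 CPM without, and Edn1, the precursor of endothelin-1, 199 ± 64.4 CPM with LPS and 0.659 ± 0.473 CPM without. Adamts4, a protease of matrix proteoglycans, averaged 62.1 ± 30.0 CPM with LPS and 0.201 ± 0.0872 CPM without, and Shisa3 44.7 ± 14.7 CPM with LPS and 0.132 ± 0.225 CPM without. The others were Ccl5, Cxcl3, Il1b and Mir155, and 3 genes with next to no counts without LPS. Rasgrp1, an activator of Ras, and Lad1 had 524 and 325 counts over the 4 LPS libraries and 0 over the untreated ones, so they were at least 291-fold and 181-fold higher (against a floor of 3 counts over the 4 untreated libraries). Zfp811 had 989 counts with LPS and 1 without, a ratio of 1648-fold (95% counting interval 295 to 65156) after scaling for depth.

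The 15 largest falls, chosen in the same way, held several regulators of transcription and of the cell cycle. Sox4, a transcription factor of progenitor cells (chromosome 13 at 28948919 to 28953699), fell to 0.866, 0.589, 1.77 and 0.247 CPM in the LPS libraries, against 21.1, 21.9, 20.3 and 30.0 CPM in the untreated ones. Gcnt1, which branches O-glycans, fell to 8.57, 3.77, 6.56 and 6.68 CPM in the LPS libraries, against 90.0, 151, 116 and 145 CPM in the untreated ones. As the choice required, neither gene overlapped between the groups, and their log2 fold changes were -4.70 ± 0.30 and -4.28 ± 0.25 (SE, adjusted p = 6.42e-16 and 5.02e-17). E2f2, an activator of S-phase genes, averaged 5.24 ± 2.16 CPM with LPS and 75.5 ± 12.4 CPM without. Dtl, which directs Cdt1 and p21 to destruction during S phase, averaged 2.01 ± 0.225 CPM with LPS and 23.6 ± 7.51 CPM without. Lyl1, a transcription factor of blood progenitors, averaged 2.18 ± 0.943 CPM with LPS and 32.5 ± 5.38 CPM without, and Lpin1, a phosphatidate phosphatase of lipid synthesis, 2.09 ± 0.8286 CPM with LPS and 34.9 ± 7.45 CPM without. Of the receptors, Cxcr4, the receptor of CXCL12, averaged 1.30 ± 0.340 CPM with LPS and 17.0 ± 6.32 CPM without, and Gpr183, a receptor of oxysterols, 10.4 ± 0.733 CPM with LPS and 106 ± 8.90 CPM without. Nlrp1b, an inflammasome sensor, averaged 1.89 ± 0.736 CPM with LPS and 21.6 ± 9.16 CPM without. The other members were Zfp395, Zfp618, Fam78a, Ccsap, Lhfpl2 and Arl4c, at log2 fold changes of -4.77 to -3.35.

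**Figure D2:**
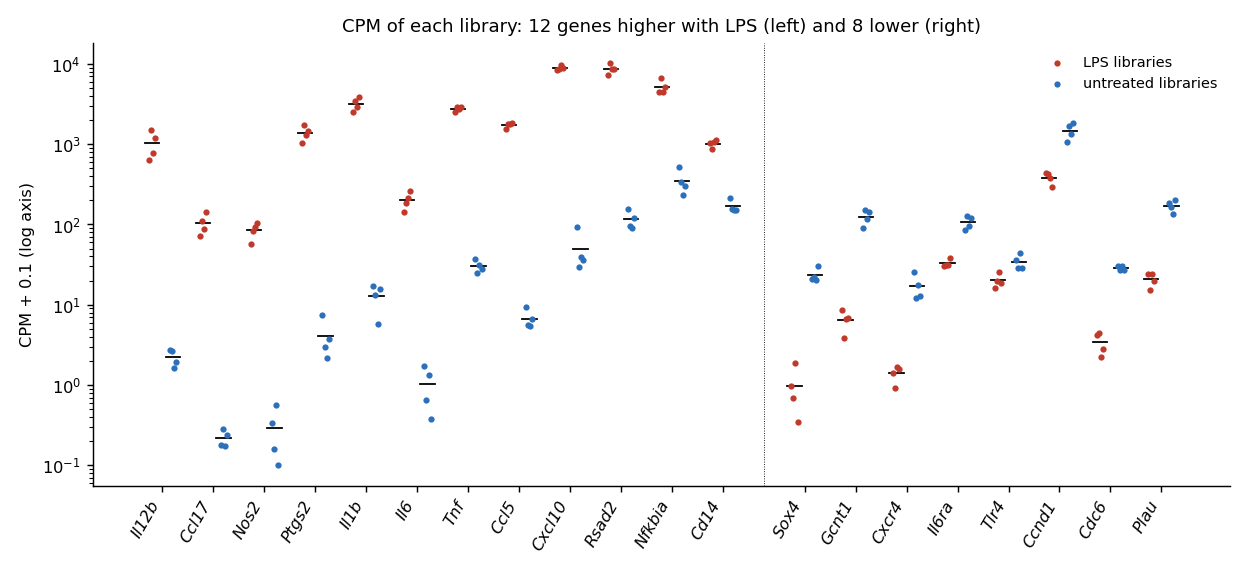
CPM of each library on a log axis (0.1 added so that libraries at 0 can be drawn) for 12 genes that rose and 8 that fell, with LPS libraries left of untreated ones in each pair. Bars mark group means, and only genes whose groups do not overlap were drawn.

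Of the receptors that sense microbial products, 9 of 15 tested rose and 3 fell, against 18.3% and 17.9% of all genes. The median log2 change of the list was 0.59, against -0.04 over all genes tested. Cd14, which hands LPS to TLR4, stood at 1028, 864, 1051 and 1128 CPM in the LPS libraries, against 216, 158, 151 and 153 CPM in the untreated ones. Tlr2, the receptor of bacterial lipopeptides, stood at 250.0, 222, 261 and 293 CPM in the LPS libraries, against 36.3, 25.2, 37.1 and 38.5 CPM in the untreated ones. The groups of both genes were apart, at log2 fold changes of 2.59 ± 0.19 and 2.90 ± 0.19 (SE). Tlr1 and Tlr6, the partners of TLR2, rose by 2.46 and 1.83, and Tlr3, the sensor of double-stranded RNA, by 2.61 on the log2 scale. The LPS receptor itself moved the other way: Tlr4 stood at 16.02, 19.6, 25.7 and 18.8 CPM in the LPS libraries, against 36.3, 28.4, 44.3 and 29.0 CPM in the untreated ones. Its groups did not overlap, and the log2 fold change was -0.79 ± 0.19 (adjusted p = 0.000883). Ly96, which encodes its partner MD-2, stood at 37.8, 42.2, 31.9 and 43.5 CPM in the LPS libraries, against 85.8, 35.2, 35.8 and 34.6 CPM in the untreated ones, and was not called. Untreated library 1 was far above the other 3, and the log2 change was -0.30 with it and 0.12 without it (adjusted p = 0.284 and 0.651). Tlr13, the sensor of bacterial ribosomal RNA, fell by 1.71 on the log2 scale, to 33.7 CPM with LPS, against 110.4 CPM without.

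Among adaptors and kinases of the pathway 17 of 27 rose and 1 fell (4 with RLE scaling, with DESeq2 or without untreated library 1, 2 with no low-count filter or with the compared groups alone, and none without LPS library 1 or 4). The shares over all genes were 18.3% higher and 17.9% lower. Traf1 averaged 191 ± 13.6 CPM with LPS and 5.26 ± 0.865 CPM without, Irak2, a kinase that sustains the response, 123 ± 5.55 CPM with LPS and 12.3 ± 3.66 CPM without, and Ripk2, the kinase of NOD receptors, 71.4 ± 7.93 CPM with LPS and 5.48 ± 1.69 CPM without. Peli1, a ubiquitin ligase of IRAK kinases, averaged 738 ± 219.6 CPM with LPS and 68.0 ± 13.2 CPM without, and Map3k8, which drives ERK, 60.7 ± 9.57 CPM with LPS and 7.05 ± 0.663 CPM without. Ikbke, a kinase of IRF3, averaged 184 ± 20.2 CPM with LPS and 34.3 ± 5.06 CPM without. Irak1, Ripk1 and Map3k7 (TAK1) were not called, at log2 changes of -0.34, -0.21 and 0.40. However, Irak1 was called lower with RLE scaling (adjusted p = 0.042), with DESeq2 (adjusted p = 0.0254) and without untreated library 1 (adjusted p = 0.0356). With the compared groups alone Map3k7 was called higher (edgeR adjusted p = 0.0459).

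All 11 NF-kB subunits and IkB proteins rose (100% against 18.3% of all genes), with a median log2 change of 2.65. Nfkbia, whose promoter is printed above, stood at 4483, 6653, 4439 and 5129 CPM in the LPS libraries, against 527, 341, 233 and 303 CPM in the untreated ones. Nfkbiz, a nuclear IkB protein needed for a later wave of genes that includes Il6, stood at 674, 1069.9, 781 and 979 CPM in the LPS libraries, against 12.6, 17.4, 17.8 and 21.9 CPM in the untreated ones. Both were apart in all libraries, and the log2 fold changes were 3.88 ± 0.20 and 5.66 ± 0.21 (SE, adjusted p = 1.40e-18 and 1.32e-22). Of the subunits, Nfkb2, Rel, Nfkb1 and Relb rose by 3.29, 2.68, 2.58 and 2.21 on the log2 scale, and Rela, the p65 subunit held ready in resting cells, by 1.08.

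Of the interleukins and TNF family cytokines 23 of 26 tested rose and 3 fell (18.3% and 17.9% of all genes), with a median log2 change of 3.88. Il1b, the pyrogenic cytokine that caspase-1 matures, stood at 2517, 3473, 2869 and 3886 CPM in the LPS libraries, against 16.9, 13.2, 5.66 and 15.5 CPM in the untreated ones. Il1a stood at 691, 954, 768 and 834 CPM in the LPS libraries, against 4.89, 2.67, 2.91 and 3.38 CPM in the untreated ones. Il6, a cytokine of fever and the acute phase, stood at 144, 185, 212 and 261 CPM in the LPS libraries, against 1.63, 0.547, 1.22 and 0.281 CPM in the untreated ones. In all 3 genes every LPS library lay above every untreated one, and the log2 fold changes were 7.96 ± 0.35, 7.87 ± 0.32 and 7.68 ± 0.38 (SE). Tnf stood at 2494, 2887, 2744 and 2909.9 CPM in the LPS libraries, against 37.1, 24.9, 31.0 and 28.0 CPM in the untreated ones, a log2 fold change of 6.51 ± 0.20. Tnfsf15, the ligand of death receptor 3, averaged 162 ± 40.5 CPM with LPS and 0.634 ± 0.435 CPM without. Il12a, the subunit that joins Il12b to form IL-12, had no counts without LPS and averaged 3.17 CPM with LPS, at least 49.99-fold higher. Cytokines that restrain the response rose as well. Il10 averaged 15.6 ± 1.39 CPM with LPS and 0.691 ± 0.300 CPM without, and Il1rn, the antagonist of the IL-1 receptor, 297 ± 23.2 CPM with LPS and 34.9 ± 5.05 CPM without. Il27 averaged 118 ± 34.6 CPM with LPS and 3.41 ± 2.05 CPM without and Il18 81.3 ± 5.24 CPM with LPS and 8.37 ± 1.25 CPM without. Ifnb1, which links the TRIF arm to the interferon response, counted 1.13, 6.72, 5.85 and 4.21 CPM in the LPS libraries, against 0, 0, 0.0765 and 0.281 CPM in the untreated ones. Over all libraries it had 120 counts with LPS and 3 without, a ratio of 66.7-fold (95% counting interval 22.3 to 328). The 3 members that fell were Tnfsf14 (0.565 ± 0.340 CPM with LPS and 5.02 ± 2.24 CPM without), Il16 (1.51 ± 1.44 CPM with LPS and 11.8 ± 0.993 CPM without) and Tnfsf12 (36.02 ± 8.14 CPM with LPS and 60.1 ± 15.7 CPM without). The fall of Tnfsf12 was lost without untreated library 1 or LPS library 4 (adjusted p = 0.0595 and 0.0569). Tnf, Il10, Il1rn, Il27, Il18 and Ifnb1 were named after their values were seen.

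Of the CC chemokines 10 of 14 rose and none fell, and of the CXC and CX3C chemokines 9 of 11 rose and none fell. Their median log2 changes were 4.47 and 5.84, and of all genes 18.3% rose and 17.9% fell. Ccl5, which draws T cells and monocytes, stood at 1549, 1779, 1782 and 1856 CPM in the LPS libraries, against 9.24, 5.47, 5.35 and 6.47 CPM in the untreated ones. Ccl3 and Ccl4, related inflammatory chemokines, averaged 6033 ± 299 CPM with LPS and 82.0 ± 24.2 CPM without, and 8292 ± 487 CPM with LPS and 101 ± 39.5 CPM without. Ccl22, like Ccl17 a ligand of CCR4, averaged 89.5 ± 13.4 CPM with LPS and 0.447 ± 0.320 CPM without. Cxcl2, which draws neutrophils, stood at 9617, 12487, 10018 and 10656 CPM in the LPS libraries, against 57.6, 51.3, 46.7 and 55.0 CPM in the untreated ones. Cxcl10, an interferon-inducible ligand of CXCR3, stood at 8499, 8543, 9590.1 and 8948 CPM in the LPS libraries, against 93.9, 29.7, 39.6 and 36.4 CPM in the untreated ones. Every LPS library of Ccl5, Cxcl2 and Cxcl10 was far above every untreated one, at log2 fold changes of 8.03 ± 0.26, 7.67 ± 0.29 and 7.48 ± 0.43 (SE). Cxcl3 averaged 274 ± 47.9 CPM with LPS and 1.06 ± 1.25 CPM without, Cxcl1 193 ± 17.4 CPM with LPS and 0.975 ± 0.863 CPM without and Cx3cl1, the membrane-bound fractalkine, 58.6 ± 10.7 CPM with LPS and 1.01 ± 0.254 CPM without. Not called were Ccl6 (253 ± 27.6 CPM with LPS and 195 ± 9.64 CPM without) and Cxcl14 (34.3 ± 5.58 CPM with LPS and 42.9 ± 10.4 CPM without). With the compared groups alone Ccl6 was called higher (edgeR adjusted p = 0.0483).

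All 58 genes tested of the type I interferon response rose (18.3% of all genes), with a median log2 change of 2.71. In all 58 every LPS library lay above every untreated one (19.3% of all genes). Rsad2 stood at 7167, 10311, 8679 and 8665 CPM in the LPS libraries, against 155, 95.3, 89.2 and 122 CPM in the untreated ones. Ifit1, which binds viral RNA, stood at 1927, 2424, 2278 and 2051 CPM in the LPS libraries, against 41.9, 60.6, 44.7 and 88.2 CPM in the untreated ones. Mx1, an antiviral GTPase, averaged 589 ± 80.3 CPM with LPS and 10.8 ± 1.33 CPM without, Ifit2 1331 ± 156 CPM with LPS and 27.9 ± 4.44 CPM without and Oasl1, which dampens Irf7 translation, 157 ± 11.6 CPM with LPS and 3.03 ± 1.05 CPM without. Ifi205 averaged 239 ± 102 CPM with LPS and 2.07 ± 0.921 CPM without. The log2 fold changes of Rsad2, Ifit1 and Ifi205 were 6.24 ± 0.26, 5.21 ± 0.32 and 6.81 ± 0.37 (SE). Ifi205, the Ifit genes and other members of the list have near-identical relatives, so reads may be split between copies. Transcription factors of this arm were higher too, with 10 of 15 IRF and STAT genes called higher and none lower. Irf7, the amplifier of interferon genes, averaged 317 ± 20.3 CPM with LPS and 31.5 ± 6.48 CPM without, Irf1 315 ± 14.9 CPM with LPS and 31.5 ± 1.45 CPM without and Stat2 414 ± 22.3 CPM with LPS and 78.5 ± 17.5 CPM without. Irf3, the factor that TBK1 switches on and that is made beforehand, was not called (20.5 ± 1.60 CPM with LPS and 23.1 ± 2.44 CPM without, adjusted p = 0.502), nor was Stat6, the factor of IL-4 signalling (92.4 ± 13.4 CPM with LPS and 121 ± 32.9 CPM without). Stat6 was called lower with RLE scaling (adjusted p = 0.0426) and with DESeq2 (adjusted p = 0.0318). Untreated library 1 was the lowest of its group in this gene, and without it Stat6 was called lower too (log2 change -0.60, adjusted p = 0.00521). Of the GBP and IRG GTPases, which attack the vacuoles of intracellular microbes and have many near-identical copies, 12 of 13 rose and none fell. Gbp5 averaged 253 ± 107 CPM with LPS and 4.10 ± 0.667 CPM without, Gbp2 399.7 ± 40.4 CPM with LPS and 12.2 ± 0.853 CPM without and Iigp1 161 ± 36.3 CPM with LPS and 3.13 ± 0.925 CPM without.

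Of the signalling brakes 18 of 29 rose and 6 fell, against 18.3% and 17.9% of all genes. Socs3, which blocks the IL-6 receptor chain, stood at 506, 515, 560.1 and 640.5 CPM in the LPS libraries, against 6.60, 2.37, 1.99 and 2.95 CPM in the untreated ones. Socs1, which blocks interferon receptors, averaged 196 ± 26.3 CPM with LPS and 2.58 ± 1.70 CPM without, and Cish, a SOCS family inhibitor of STAT5 signalling, 48.1 ± 1.19 CPM with LPS and 0.569 ± 0.392 CPM without. Dusp2, a nuclear phosphatase of MAP kinases, averaged 84.2 ± 9.97 CPM with LPS and 2.78 ± 1.01 CPM without, and Zc3h12a (Regnase-1), which degrades cytokine mRNAs, 77.1 ± 6.35 CPM with LPS and 4.98 ± 1.52 CPM without. Tnfaip3, the ubiquitin editor A20, stood at 211, 332, 245 and 321 CPM in the LPS libraries, against 73.1, 6.50, 77.4 and 8.16 CPM in the untreated ones. Its groups were apart, but untreated libraries 1 and 3 lay well above libraries 2 and 4. The gene was named after its values were seen. The 3 largest of the 6 falls were those of Dusp7 (29.7 ± 2.47 CPM with LPS and 95.9 ± 1.88 CPM without), Spred2 (11.8 ± 1.11 CPM with LPS and 36.2 ± 1.90 CPM without) and Dusp6 (33.2 ± 7.59 CPM with LPS and 101 ± 9.47 CPM without).

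Of the immediate-early and AP-1 factors 17 of 29 rose and 6 fell at this time, against 18.3% and 17.9% of all genes. Batf2 averaged 37.8 ± 4.85 CPM with LPS and 1.75 ± 1.14 CPM without, Batf 28.0 ± 4.58 CPM with LPS and 2.96 ± 0.269 CPM without, Maff 34.1 ± 2.38 CPM with LPS and 3.57 ± 0.574 CPM without and Ier3 259 ± 18.3 CPM with LPS and 16.1 ± 4.48 CPM without. Egr2 averaged 15.5 ± 2.28 CPM with LPS and 1.27 ± 0.452 CPM without. The falls included Klf2 at 7.01 ± 2.94 CPM with LPS and 45.9 ± 10.3 CPM without, Klf10 at 5.91 ± 1.67 CPM with LPS and 40.0 ± 8.52 CPM without and Klf4, a Krüppel-like factor of monocyte differentiation, at 16.9 ± 4.06 CPM with LPS and 58.6 ± 6.84 CPM without. Fos averaged 31.8 ± 2.61 CPM with LPS and 42.9 ± 6.95 CPM without and Myc 26.2 ± 2.71 CPM with LPS and 24.7 ± 5.16 CPM without, and neither was called (adjusted p = 0.195 and 0.848). With the compared groups alone Fos was called lower (edgeR adjusted p = 0.0333).

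Enzymes that make nitric oxide, itaconate and oxidants, and proteins that withhold metals, rose in 16 of 19 cases and none fell. The shares over all genes were 18.3% higher and 17.9% lower. Acod1, which makes itaconate, stood at 6104, 11983, 6432 and 11039 CPM in the LPS libraries, against 51.6, 69.3, 49.95 and 71.3 CPM in the untreated ones. Saa3, an acute-phase serum amyloid, stood at 1087, 1240.2, 1133 and 1461 CPM in the LPS libraries, against 8.31, 3.89, 4.21 and 4.36 CPM in the untreated ones. The groups were apart, at log2 fold changes of 7.20 ± 0.31 and 7.88 ± 0.37 (SE). Nos2 counted 56.4, 82.7, 93.1 and 105 CPM in the LPS libraries, against 0.233, 0.0608, 0.459 and 0 CPM in the untreated ones. Cp, the copper oxidase ceruloplasmin, averaged 108 ± 30.4 CPM with LPS and 1.41 ± 0.354 CPM without, and Lcn2, which binds bacterial siderophores, 43.3 ± 2.51 CPM with LPS and 1.78 ± 0.678 CPM without. Arg1, which competes with NOS2 for arginine and marks alternative activation, was not called (6.99 ± 3.68 CPM with LPS and 8.03 ± 2.82 CPM without, adjusted p = 0.715). In the prostaglandin and leukotriene pathway 6 of 19 rose and 4 fell. Ptgs2 stood at 1026, 1712, 1287 and 1469.7 CPM in the LPS libraries, against 7.30, 2.86, 2.07 and 3.66 CPM in the untreated ones. Ptges, the inducible prostaglandin E2 synthase that works with it, averaged 41.9 ± 3.86 CPM with LPS and 2.02 ± 0.666 CPM without. Ptger4, a receptor of prostaglandin E2, averaged 35.1 ± 4.83 CPM with LPS and 10.6 ± 3.48 CPM without. Hpgds, which makes prostaglandin D2, fell by 1.20 on the log2 scale (138 ± 10.1 CPM with LPS and 317 ± 39.0 CPM without). Alox5ap and Lta4h, of the leukotriene branch, were not called (-0.22 and 0.05).

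Surface receptors for chemoattractants and nucleotides split, with 14 of 32 higher and 12 lower, against 18.3% and 17.9% of all genes. Fpr2, a receptor of formyl and other peptides, averaged 187 ± 26.3 CPM with LPS and 3.61 ± 1.19 CPM without, and its relative Fpr1 22.4 ± 3.01 CPM with LPS and 0.556 ± 0.546 CPM without. Ccrl2, which presents chemerin, averaged 349 ± 31.0 CPM with LPS and 5.44 ± 1.82 CPM without, and Hcar2, the receptor of niacin and butyrate, 46.8 ± 3.82 CPM with LPS and 1.22 ± 0.540 CPM without. Besides Cxcr4 and Gpr183, S1pr1, a receptor of sphingosine 1-phosphate, fell (9.39 ± 2.10 CPM with LPS and 58.5 ± 5.48 CPM without). C5ar1, the receptor of complement C5a, was not called (644 ± 78.5 CPM with LPS and 558 ± 84.9 CPM without). Cytokine receptors rose in 16 of 28 cases and fell in 4. Cd40, the receptor of CD40 ligand on T cells, averaged 435 ± 28.1 CPM with LPS and 11.9 ± 3.55 CPM without, Tnfrsf1b, the second TNF receptor, 837 ± 61.7 CPM with LPS and 87.9 ± 42.6 CPM without, and Il15ra, which presents IL-15, 29.3 ± 4.65 CPM with LPS and 2.94 ± 0.600 CPM without. Il6ra and Il6st, the 2 chains of the IL-6 receptor, fell while Il6 rose: they averaged 32.8 ± 3.83 CPM with LPS and 107 ± 19.4 CPM without, and 16.1 ± 2.19 CPM with LPS and 44.7 ± 12.6 CPM without. Tgfbr1, a TGF-beta receptor, averaged 13.6 ± 0.0578 CPM with LPS and 58.5 ± 3.70 CPM without.

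Factors of the macrophage lineage and receptors of colony-stimulating factors were called higher in 12 of 33 cases and lower in 12. The shares over all genes were 18.3% higher and 17.9% lower. Cebpd, a C/EBP factor of inflammation, stood at 397, 405, 413 and 425 CPM in the LPS libraries, against 26.7, 23.6, 26.8 and 25.7 CPM in the untreated ones. Its groups did not overlap, and the log2 fold change was 3.99 ± 0.15 (SE). Cebpb averaged 492 ± 25.8 CPM with LPS and 109 ± 7.76 CPM without and Tfec, a macrophage relative of MITF, 89.9 ± 9.36 CPM with LPS and 13.7 ± 1.75 CPM without. Bcl6, a repressor of inflammatory genes, averaged 13.6 ± 2.91 CPM with LPS and 56.7 ± 9.36 CPM without, and Etv5 9.81 ± 4.97 CPM with LPS and 48.2 ± 14.3 CPM without. Csf1r, the M-CSF receptor, was not called (503 ± 41.0 CPM with LPS and 459 ± 162 CPM without, adjusted p = 0.631), while its ligand Csf1 was higher (214 ± 23.1 CPM with LPS and 5.59 ± 0.591 CPM without). Of the growth factors 9 of 22 rose and 5 fell, with a fall of 2.44 on the log2 scale in Kitl, the ligand of KIT (9.23 ± 2.44 CPM with LPS and 51.2 ± 6.44 CPM without). Csf2, the gene of GM-CSF, had 185 counts with LPS and 2 without, a ratio of 154-fold (95% counting interval 42.1 to 1282). Csf3, the gene of G-CSF, had 76 counts with LPS and 0 without, at least 42.2-fold higher.

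Scavenger, lectin and Fc receptors rose in 19 of 32 cases and fell in 6, of which 1 passed with libraries summed in pairs. The shares over all genes were 18.3% higher and 17.9% lower. Clec4e (Mincle), which binds mycobacterial cord factor, stood at 1588, 1775, 1626 and 1888 CPM in the LPS libraries, against 109, 81.8, 89.3 and 84.7 CPM in the untreated ones. Marco, a scavenger receptor of bacteria, averaged 124 ± 26.3 CPM with LPS and 6.77 ± 2.05 CPM without, and Fcgr2b, the inhibitory IgG receptor, 447 ± 59.6 CPM with LPS and 45.1 ± 11.4 CPM without. Cd36 and Mrc1 were not called (-0.15 and -0.41), and Mrc1 was called lower without untreated library 1 (adjusted p = 0.0457). Adhesion, matrix and protease genes rose in 24 of 41 cases and fell in 5. Vcam1, which tethers leukocytes, averaged 19.3 ± 5.57 CPM with LPS and 0.704 ± 0.377 CPM without, whereas Plau, the plasminogen activator urokinase, fell to 24.4, 14.97, 23.8 and 19.5 CPM in the LPS libraries, against 187, 167, 135 and 201 CPM in the untreated ones. Itgam and Itgb2, the chains of the integrin Mac-1, were not called (0.13 and 0.17).

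Genes of antigen presentation and of T cell costimulation were mostly higher, where 18.3% of all genes rose and 17.9% fell. Of the MHC class I and immunoproteasome genes 18 of 20 rose and none fell, among them Nlrc5, which switches on class I genes (64.2 ± 7.81 CPM with LPS and 9.68 ± 2.05 CPM without), the peptide transporter genes Tap1 (187 ± 14.5 CPM with LPS and 33.5 ± 8.12 CPM without) and Tap2 (44.5 ± 4.21 CPM with LPS and 13.4 ± 1.66 CPM without), and the proteasome activator Psme2 (160.1 ± 5.57 CPM with LPS and 33.9 ± 5.57 CPM without). Of the MHC class II and costimulation genes 18 of 26 rose and 2 fell. Cd274, the gene of PD-L1, stood at 269, 339, 382 and 385 CPM in the LPS libraries, against 10.5, 8.87, 10.9 and 11.3 CPM in the untreated ones. Cd83 averaged 96.2 ± 6.45 CPM with LPS and 6.44 ± 1.73 CPM without and Slamf7 722 ± 103 CPM with LPS and 47.2 ± 6.48 CPM without. The class II loading genes H2-DMa and H2-DMb1 were not called (-0.05 and 0.28). The 2 that fell were the checkpoint receptor genes Havcr2, which encodes TIM-3 (10.05 ± 2.66 CPM with LPS and 32.8 ± 8.24 CPM without), and Vsir, which encodes VISTA (27.9 ± 3.33 CPM with LPS and 66.1 ± 3.05 CPM without).

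Inflammasome and lytic death genes rose in 14 of 27 cases and fell in 3 (5 with the compared groups alone). The shares over all genes were 18.3% higher and 17.9% lower. Nlrp3, the sensor that LPS primes, stood at 639.5, 757, 639.6 and 736 CPM in the LPS libraries, against 66.7, 56.8, 48.7 and 54.4 CPM in the untreated ones. Casp4, which encodes caspase-11, the receptor of LPS in the cytosol, stood at 78.3, 103, 89.2 and 105 CPM in the LPS libraries, against 7.69, 9.54, 8.11 and 10.4 CPM in the untreated ones. The groups were apart, at log2 fold changes of 3.61 ± 0.17 and 3.39 ± 0.16 (SE). The peptidoglycan sensors Nod1 and Nod2 averaged 23.7 ± 3.83 CPM with LPS and 2.02 ± 0.498 CPM without, and 31.2 ± 3.95 CPM with LPS and 1.80 ± 0.645 CPM without. Casp8 stood at 88.2, 101, 102 and 106 CPM in the LPS libraries, against 231, 63.6, 82.3 and 81.2 CPM in the untreated ones, with untreated library 1 far above the rest. It was not called, and its log2 change was -0.21 with that library and 0.37 without it (adjusted p = 0.51 and 0.0614). In the BCL2 and apoptosis list 15 of 30 rose and 4 fell (2 without untreated library 1). Cflar, the inhibitor of caspase-8, averaged 36.1 ± 4.98 CPM with LPS and 3.12 ± 0.179 CPM without, Gadd45b 362 ± 69.5 CPM with LPS and 12.7 ± 2.08 CPM without, and Bcl2a1b, 1 of several near-identical survival genes, 340.4 ± 5.31 CPM with LPS and 40.6 ± 11.6 CPM without. Bcl2 fell (11.5 ± 1.71 CPM with LPS and 27.0 ± 5.31 CPM without).

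Genes of DNA replication, DNA repair and mitosis were called lower or not called, and none of the 119 tested was called higher (18.3% of all genes). Of the replication genes 28 of 44 fell, and 17 with libraries summed in pairs (background of falls 17.9%), with a median log2 change of -0.78. Cdc6, which loads the replicative helicase, counted 4.07, 4.36, 2.13 and 2.72 CPM in the LPS libraries, against 30.5, 27.3, 30.2 and 27.3 CPM in the untreated ones. Cdt1, its partner, counted 8.40, 7.90, 8.16 and 6.43 CPM in the LPS libraries, against 46.7, 28.1, 26.7 and 27.9 CPM in the untreated ones. Both genes were lower in all LPS libraries, at log2 fold changes of -3.06 ± 0.35 and -2.05 ± 0.28 (SE). Dnmt1, which copies DNA methylation at the fork, averaged 60.9 ± 8.52 CPM with LPS and 245 ± 58.2 CPM without, and Rfc1, of the clamp loader, 44.3 ± 8.63 CPM with LPS and 185 ± 56.1 CPM without. Pcna, the clamp itself, was not called (316 ± 11.9 CPM with LPS and 391 ± 32.6 CPM without, adjusted p = 0.0763), nor was Rrm1, of ribonucleotide reductase (-0.16). Pcna was called lower with RLE scaling (adjusted p = 0.0262) and with DESeq2 (adjusted p = 0.00417). Of the repair and checkpoint genes 19 of 35 fell. The mismatch repair gene Msh6 averaged 4.08 ± 1.15 CPM with LPS and 25.97 ± 4.72 CPM without. Xpc, a sensor of nucleotide excision repair, averaged 4.50 ± 1.06 CPM with LPS and 20.8 ± 7.15 CPM without, and Brca2 7.02 ± 1.79 CPM with LPS and 29.2 ± 9.22 CPM without. Of the mitosis genes 13 of 40 fell, 7 with libraries summed in pairs and 20 with the compared groups alone. Kif23, a motor of cytokinesis, averaged 97.3 ± 19.1 CPM with LPS and 263 ± 32.3 CPM without, and Ccnf 8.58 ± 2.83 CPM with LPS and 28.9 ± 4.78 CPM without. Mki67, the proliferation marker, counted 201, 378, 213 and 358 CPM in the LPS libraries, against 616, 945, 855 and 953 CPM in the untreated ones. Its groups were apart (edgeR adjusted p = 0.00417), but the call was lost with libraries summed in pairs (adjusted p = 0.0681). Top2a was not called (937 ± 120.4 CPM with LPS and 1187 ± 196 CPM without). Of the regulators of the cycle 16 of 34 fell and 6 rose, against 17.9% and 18.3% of all genes. Ccnd1, the cyclin D1 that growth factors induce, stood at 439, 419.5, 384 and 294 CPM in the LPS libraries, against 1078, 1687, 1327 and 1827 CPM in the untreated ones. Ccne2, a cyclin of S-phase entry, averaged 31.0 ± 12.5 CPM with LPS and 124 ± 36.9 CPM without. Cdkn1a, the CDK inhibitor p21, stood at 2325, 3034, 2357 and 2777 CPM in the LPS libraries, against 660.2, 797, 685 and 764 CPM in the untreated ones. Ccnd1 was lower and Cdkn1a higher in every LPS library than in any untreated one, at log2 fold changes of -1.94 ± 0.19 and 1.85 ± 0.21 (SE). Ccnd2 rose (251 ± 36.7 CPM with LPS and 107 ± 9.36 CPM without). In bulk RNA, fewer dividing cells and less transcript in each cell cannot be told apart.

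**Figure D3:**
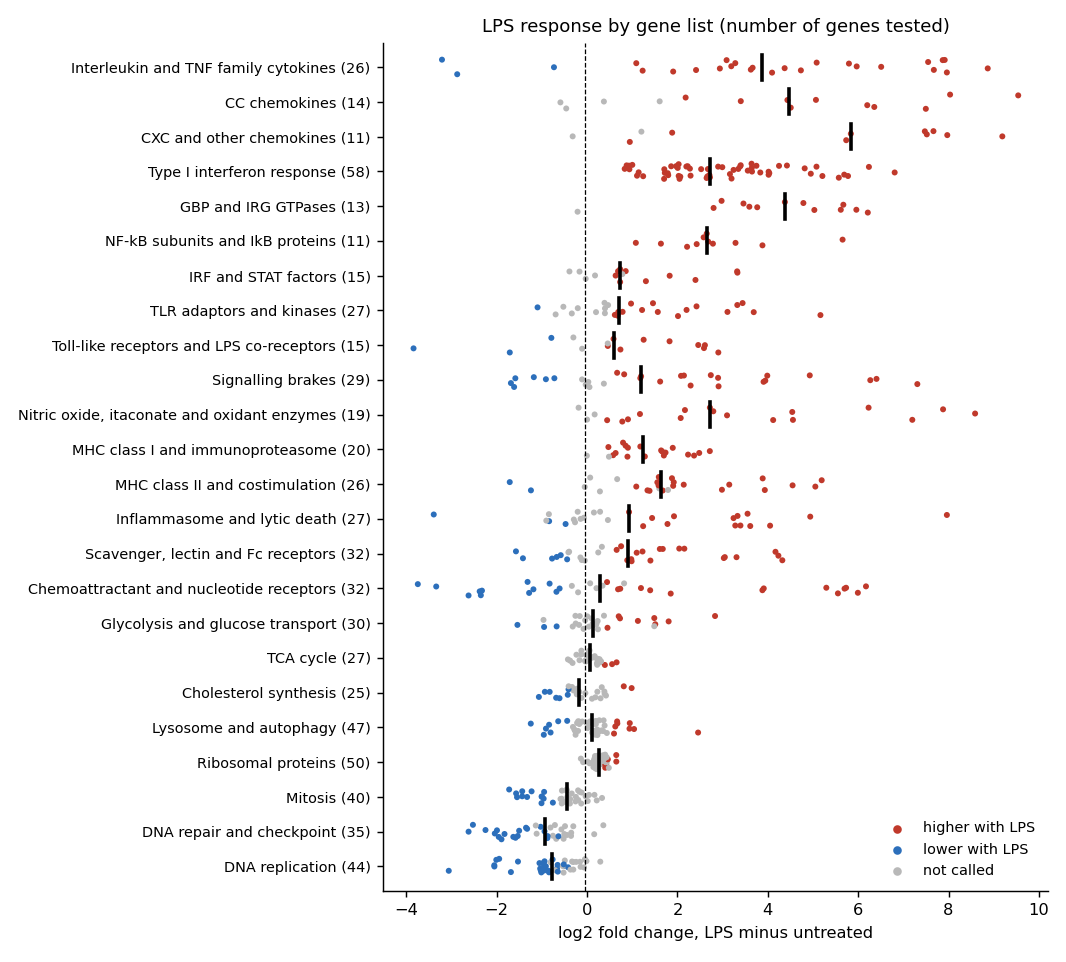
Log2 fold change (LPS minus untreated, x axis) of every tested member of 24 gene lists (rows), coloured by the edgeR call, with a black bar at each list's median and a dashed line at the median of all 11244 genes (-0.04). Cytokine, chemokine, interferon and NF-kB lists lie to the right, DNA replication and repair lists to the left, and most TCA cycle, ribosomal protein and lysosome genes sit near 0.

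Of 30 glycolysis and glucose transport genes 8 rose and 3 fell, against 18.3% and 17.9% of all genes, and 1 fell without LPS library 4. Slc2a1, the glucose transporter GLUT1, averaged 219 ± 9.63 CPM with LPS and 76.9 ± 11.6 CPM without, Hk2, the inducible hexokinase, 131 ± 12.7 CPM with LPS and 46.7 ± 11.3 CPM without, and Pfkfb3, which makes the activator of phosphofructokinase, 23.7 ± 3.51 CPM with LPS and 6.70 ± 1.60 CPM without. Hif1a, a transcription factor of glycolytic genes, averaged 187 ± 28.8 CPM with LPS and 85.9 ± 10.3 CPM without. Pkm and Aldoa, further down the pathway, were not called (0.10 and 0.24). Of 27 TCA cycle genes 3 rose and none fell, and none was called with libraries summed in pairs (1 rose without LPS library 3, and 1 was called lower without untreated library 2, with RLE scaling or with the compared groups alone, and 2 with DESeq2). Mdh2, the malate dehydrogenase of mitochondria, gave a log2 change of 0.10. Among solute carriers 10 of 23 rose and 2 fell (4 with RLE scaling, DESeq2 or the compared groups alone). Slc7a11, the cystine transporter, averaged 45.4 ± 6.45 CPM with LPS and 0.873 ± 0.509 CPM without, and Slc7a2, which brings in arginine, 59.7 ± 5.37 CPM with LPS and 3.36 ± 1.46 CPM without. Of 25 antioxidant genes 7 rose and 1 fell (none without untreated library 4). Sod2, the superoxide dismutase of mitochondria, stood at 981, 879, 947 and 923 CPM in the LPS libraries, against 151, 92.9, 100.3 and 90.9 CPM in the untreated ones. Of the iron genes 4 of 13 rose and 2 fell. Slc40a1, the iron exporter ferroportin, was lower (7.58 ± 0.924 CPM with LPS and 30.2 ± 2.45 CPM without), and Slc11a2, the iron importer DMT1, higher (101 ± 1.11 CPM with LPS and 18.8 ± 5.06 CPM without).

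Of all genes tested 18.3% rose and 17.9% fell, and the counts of the lipid lists stand beside these shares. In cholesterol synthesis 7 of 25 fell and 2 rose, and with libraries summed in pairs 2 fell and 2 rose. Dhcr7, of the last step, fell and averaged 7.20 ± 2.31 CPM with LPS and 15.5 ± 1.66 CPM without. Among cholesterol export genes and LXR targets 5 of 20 rose and 3 fell. Nr1h3, which encodes LXR-alpha, averaged 16.3 ± 2.34 CPM with LPS and 4.99 ± 1.73 CPM without, Scd2, a fatty acid desaturase, 47.3 ± 5.96 CPM with LPS and 215 ± 46.4 CPM without, and Arl4c 12.9 ± 2.996 CPM with LPS and 132 ± 18.3 CPM without. Apoe was not called (455 ± 44.9 CPM with LPS and 447 ± 53.3 CPM without). Among 20 genes of lipid-associated macrophages 3 rose and 1 fell (2 falls with RLE scaling or DESeq2, none with no low-count filter or without LPS library 1, 2 or 4 or untreated library 3). Fabp4, a fatty acid binding protein, rose (85.7 ± 7.57 CPM with LPS and 25.6 ± 7.51 CPM without), while Spp1, Ctsb and Lpl were not called (0.30, 0.19 and 0.23). Trem2 was not called either, at 240.3, 194, 253 and 216 CPM in the LPS libraries, against 363, 254, 319 and 286 CPM in the untreated ones. Its groups did not overlap (edgeR adjusted p = 0.0649), and DESeq2 called it lower (adjusted p = 0.00889), as edgeR did with RLE scaling (adjusted p = 0.0295), with the compared groups alone (adjusted p = 0.0307) and without untreated library 2 (adjusted p = 0.0367). Tyrobp, its signalling partner DAP12, was not called (799 ± 72.5 CPM with LPS and 829 ± 181 CPM without), and Syk, the kinase below it, rose (225 ± 12.4 CPM with LPS and 77.8 ± 15.4 CPM without). In the TREM list as a whole 1 of 10 rose and 1 fell, with 2 falls under RLE scaling or DESeq2 and 0 to 2 with 1 library left out.

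The counts of the next 3 lists stand beside shares of 18.3% higher and 17.9% lower over all genes tested. In the list of apoptotic cell uptake and complement C1q 4 of 19 rose and 5 fell, of which 1 fall passed with libraries summed in pairs. C3, the central complement protein, averaged 269 ± 21.9 CPM with LPS and 22.7 ± 3.50 CPM without, Cfb 24.1 ± 2.90 CPM with LPS and 0.595 ± 0.388 CPM without and Itgav 145 ± 10.03 CPM with LPS and 39.4 ± 3.67 CPM without. C1qa, C1qb and C1qc, the chains of C1q, were not called (0.29, 0.27 and 0.20). Lysosome and autophagy genes were called higher in 8 of 47 cases and lower in 7, near the shares of all genes. Sqstm1, the autophagy receptor p62, averaged 1173 ± 44.2 CPM with LPS and 214 ± 6.73 CPM without, while the cathepsin genes Ctsb, Ctsd and Ctss were not called (0.19, 0.15 and 0.27). Of 50 ribosomal protein genes 7 rose and none fell, 2 with RLE scaling or no low-count filter, 13 with the compared groups alone and none with libraries summed in pairs (2 without LPS library 1 or untreated library 4, 3 without LPS library 3 or untreated library 2, and 4 without LPS library 2). Actb, whose qPCR values set how the samples were pooled, was itself higher with LPS (14955 ± 3192 CPM with LPS and 8494 ± 2242 CPM without, adjusted p = 0.00121).

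Markers that define the cell type were checked in both groups. All 12 macrophage markers passed the filter on low counts, with summed levels of 8522 to 9701 CPM in LPS libraries and 6851 to 7309 CPM in untreated ones. Of these, 5 were called higher, 1 lower and 6 not called, against 18.3% higher and 17.9% lower of all genes tested. The fall was that of Mertk, and it was lost with libraries summed in pairs (log2 change -1.25, edgeR adjusted p = 0.127). Leaving out LPS library 1 or 3 lost it too (adjusted p = 0.124 and 0.0704). Cd68 and Mpeg1 were not called (601 ± 65.1 CPM with LPS and 642 ± 156 CPM without, and 888 ± 23.7 CPM with LPS and 976 ± 189 CPM without), and Adgre1, which encodes F4/80, was higher (650.4 ± 55.9 CPM with LPS and 262 ± 50.9 CPM without). Neutrophil markers moved with LPS, with 5 of 11 tested higher and none lower. Their summed level over 13 genes in the table was 152 to 173 CPM with LPS and 77.0 to 99.0 CPM without, with S100a9 (58.1 ± 6.83 CPM with LPS and 26.9 ± 3.73 CPM without) and S100a8 (37.0 ± 4.54 CPM with LPS and 21.4 ± 4.68 CPM without), which macrophages also make, as the most abundant. Monocyte markers summed to 105 to 109 CPM with LPS and 109 to 156 CPM without. Stromal markers summed to 4.85 to 11.9 CPM and 1.63 to 2.60 CPM, of which Pdgfrb had 103 counts with LPS and 1 without. Dendritic cell markers reached at most 6.72 CPM, B cell markers at most 5.44 CPM and T and NK cell, mast cell and erythroid markers at most 2.59, 1.77 and 0.608 CPM in any library of either group. Osteoclast markers summed to 122 to 143 CPM with LPS and 142 to 190.4 CPM without. The part of other cell types in the LPS response was not tested.

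The response of the same genotype in low M-CSF served as the nearest comparison, and asks how far the response to LPS depends on the medium. The test of the difference itself (response in normal minus response in low medium) called 2649 of 11244 genes (23.6%), 1443 higher (12.8%) and 1206 lower (10.7%), and 853 with libraries summed in pairs (471 higher, 382 lower). With RLE scaling more genes were lower than higher (1215 higher, 1359 lower), as with DESeq2 (1446 and 1533), and the median difference over all genes was 0.06 with RLE scaling, against 0.14 with TMM. Of the interferon response genes the difference was called lower in 39 of 58 and higher in none, with a median log2 change of 2.71 in normal and 3.71 in low medium. Cytokines were called lower in 9 of 26 and higher in 3 (medians 3.88 and 5.91). Replication and mitosis genes went the other way, with 12 of 44 and 19 of 40 called higher and 3 and 1 lower. Their median log2 changes stood at -0.78 and -0.44 in normal, against -1.34 and -1.48 in low medium. Tnfsf9, the ligand of the costimulatory receptor 4-1BB, averaged 50.8 ± 8.87 CPM with LPS and 24.03 ± 12.5 CPM without in normal medium. In low medium it averaged 235 ± 42.3 CPM with LPS and 4.22 ± 1.34 CPM without, and the difference of the log2 changes was -4.69 ± 0.37 (SE, adjusted p = 2.07e-11). Pcmtd2 averaged 13.7 ± 2.11 CPM with LPS and 17.9 ± 3.22 CPM without in normal medium, and 6.11 ± 3.44 CPM with LPS and 122 ± 52.4 CPM without in low medium, a difference of 3.89 ± 0.46 (SE, adjusted p = 9.67e-08). Mmp13, a collagenase, averaged 384 ± 72.1 CPM with LPS and 20.1 ± 2.78 CPM without in normal medium, and 1847 ± 670.4 CPM with LPS and 10.2 ± 3.25 CPM without in low medium, a difference of -3.25 ± 0.33 (SE, adjusted p = 5.88e-09). Other genes with the largest differences had a group at 0, so only their levels are given. Ypel2 averaged 1.47 ± 0.508 CPM with LPS and 4.11 ± 1.23 CPM without in normal medium, and 0 ± 0 CPM with LPS and 36.8 ± 4.39 CPM without in low medium (adjusted p = 1.92e-06). Upp1, a uridine phosphorylase, averaged 22.7 ± 2.95 CPM with LPS and 0.563 ± 0.260 CPM without in normal medium, and 23.01 ± 4.91 CPM with LPS and 0 ± 0 CPM without in low medium (adjusted p = 0.00481). Adm, the precursor of adrenomedullin, averaged 1.004 ± 0.818 CPM with LPS and 0.104 ± 0.122 CPM without in normal medium, and 10.5 ± 3.12 CPM with LPS and 0 ± 0 CPM without in low medium (adjusted p = 0.00517). Il23a, the subunit that joins Il12b to form IL-23, averaged 1.69 ± 0.970 CPM with LPS and 0.115 ± 0.147 CPM without in normal medium, and 17.4 ± 5.03 CPM with LPS and 0.0319 ± 0.0638 CPM without in low medium, a difference of -4.77 ± 1.56 (SE, adjusted p = 0.0232) that was lost with libraries summed in pairs (adjusted p = 0.109) and without untreated library 1 or 3 of the normal medium (adjusted p = 0.0542 and 0.207). The other genes of the 12 largest differences were E2f7, Atg9b, Ube2t, Gpr155, Mir221 and Cd164l2. Depth and TMM factors differed with the medium: low-medium LPS libraries held 3111552 to 4547552 counts with factors of 0.664 to 0.752, and, beyond the change of scaling above, their part in these differences was not tested.

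Against Trem2-/- cells in the same normal medium, the response differed in 60 of 11244 genes (0.534%), 23 higher (0.205%) and 37 lower (0.329%) in wild-type cells. None passed with libraries summed in pairs, where 520 genes had an unadjusted p under 0.05, and DESeq2 called 194. By chi-squares, libraries 1 and 3, and 2 and 4, were also close in both Trem2-/- groups. The untreated pairs gave at most 5.72 per degree of freedom, against 23.7 to 37.6 for the other pairs. The LPS pairs gave at most 8.45, against 12.6 to 24.8. By the SD of log2 CPM differences, LPS libraries 2 and 4 were no closer than 3 and 4 (0.481 each). Whether the 4 libraries of a group are independent was not tested. Leaving out 1 library at a time gave 9 genes higher (without untreated Trem2-/- library 2) to 29, and 19 genes lower (without LPS library 4 of wild-type cells or untreated Trem2-/- library 3) to 36. In Trem2-/- cells LPS called 4796 genes (42.7%). Of the lists, the interferon response had 4 of 58 called lower and none higher (medians 2.71 in wild-type and 3.39 in Trem2-/- cells), and the cytokine list 1 of 26 lower. Csf1, which encodes M-CSF itself, rose in both genotypes. It averaged 214 ± 23.1 CPM with LPS and 5.59 ± 0.591 CPM without in wild-type cells, and 259 ± 24.8 CPM with LPS and 19.0 ± 0.870 CPM without in Trem2-/- cells, a difference of log2 changes of 1.5 ± 0.23 (SE, adjusted p = 0.000861). Mmp13 averaged 523 ± 67.0 CPM with LPS and 8.07 ± 1.31 CPM without in Trem2-/- cells, a difference of -1.77 ± 0.33 (SE, adjusted p = 0.00523). Klf4 fell in wild-type cells and averaged 31.8 ± 5.79 CPM with LPS and 34.3 ± 4.82 CPM without in Trem2-/- cells, a difference of -1.70 ± 0.28 (SE, adjusted p = 0.00136). Fos averaged 38.0 ± 8.03 CPM with LPS and 15.1 ± 3.24 CPM without in Trem2-/- cells, a difference of -1.76 ± 0.37 (SE, adjusted p = 0.0137). Nod1, Tnfsf10 and Casp8 gave differences of -1.92 ± 0.39 (SE, adjusted p = 0.0127), -1.83 ± 0.39 (SE, adjusted p = 0.0159) and -1.61 ± 0.32 (SE, adjusted p = 0.0103), and Akap1 and Tm9sf4 of 2.19 ± 0.39 (SE, adjusted p = 0.00306) and 1.52 ± 0.32 (SE, adjusted p = 0.0157). The difference of Casp8 was -1.01 without wild-type untreated library 1 (adjusted p = 0.0169). That of Tnfsf10 was lost without wild-type untreated library 1 or 3 or untreated Trem2-/- library 2 (adjusted p = 0.0735, 0.0616 and 0.0514), and that of Tm9sf4 without the last of these (0.0516). Gxylt1, Tpx2 and Trem2 itself completed the 12 largest differences. The remaining transcript of Trem2 in Trem2-/- cells averaged 5.88 ± 2.28 CPM with LPS and 36.3 ± 4.96 CPM without.

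**Figure D4:**
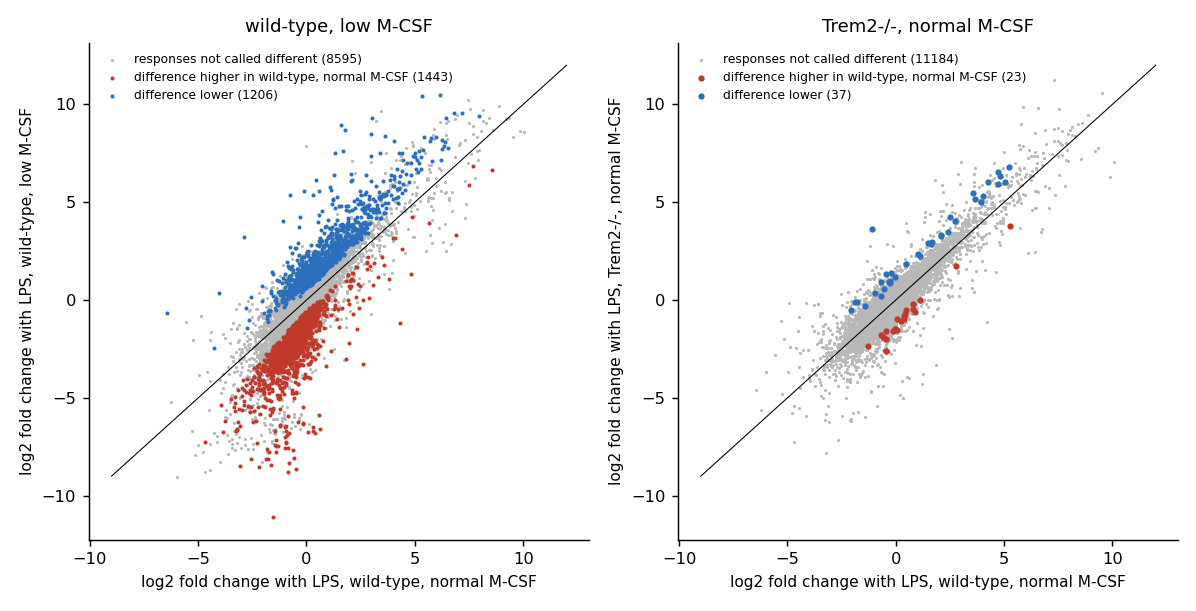
Log2 fold change with LPS in wild-type cells in normal M-CSF (x axis) against that in wild-type cells in low M-CSF (left) and in Trem2-/- cells in normal M-CSF (right), for the 11244 genes tested. Genes whose responses differ at an edgeR adjusted p under 0.05 are coloured (2649 left, 60 right), and the line marks equal responses.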

How the data were processed

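RNA of bone marrow-derived macrophages was read from the 3′ end with barcoded oligo-dT libraries, per the labels' protocols. No molecular identifiers are mentioned. The deposited file holds whole-number counts of reads per gene for 32 libraries, not normalized, and the submitters' processing notes name STAR, HTSeq, DESeq2 and mm10. Versions, annotation and strand setting are not given in the sources used here. Gene identifiers were paired with symbols through RefSeq tables of GRCm38.p6 (23969 of 24885, 96.3%, holding 99.5% of counts).

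Counts were fitted with edgeR 4.0.16 (R 4.3.3) on 8 group means of all 32 libraries. TMM scaling, filterByExpr and the quasi-likelihood F test were used, with two-sided p-values adjusted by Benjamini-Hochberg over 11244 genes at a threshold of 0.05. Differences between responses were contrasts of the same fit. Each SE was derived from the F value of its test and is approximate where a group holds few counts. The scripts were tested on simulated data. Fold bounds use a floor of 3 counts over the 4 libraries of a group, and bounds and 95% intervals cover counting error only. Depth per library, 3111552 to 12995945 counts over the groups used, limits the low genes.

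Alternatives were DESeq2 1.42.0, its size factors (RLE) in edgeR, other low-count filters, the compared groups alone, a replicate block, libraries summed in pairs and each library left out. The use of libraries 1 and 3, or 2 and 4, alone was chosen after seeing the data.

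The members and gene lists were chosen with earlier results of these data known. Named genes are the 15 largest called rises and falls with no overlap between groups and a mean of at least 10 CPM in the higher group. From each list come up to 6 of the largest changes in its majority direction, 3 called the other way and 3 not called with the highest level, together with partners of named receptors and ligands. From each difference between responses come 6 genes a direction. Tnfaip3, Nfkb1, Rela, Relb, Tnfsf9, Mmp13, Il23a, Csf1r and the cytokines marked in the text were also named after their values were seen. Some genes that these rules name are not reported here.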

Additional observations from a re-analysis of the deposited data

Results flagged for a closer look

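Of 410 sets of 4 libraries behind the levels given above, 31 (7.56%) held a library separated from the other 3 by more than Dixon's 95% limit. Chance flags about 1 in 20. Untreated library 1 made up 17 of these cases. In 16 of them it was the highest. They were (CPM, with the range of the other 3) Bcl2a1b (57.9 against 33.5 to 36.6), Casp8 (231 against 63.6 to 82.3), Ccl3 (118 against 65.9 to 73.3), Ccl4 (159.8 against 74.4 to 86.4), Cd14 (216 against 151 to 158), Cdt1 (46.7 against 26.7 to 28.1), Cxcl10 (93.9 against 29.7 to 39.6), Etv5 (69.5 against 39.3 to 44.1), Hk2 (63.6 against 40.2 to 42.5), Iigp1 (4.50 against 2.52 to 2.81), Ly96 (85.8 against 34.6 to 35.8), Saa3 (8.31 against 3.89 to 4.36), Shisa3 (0.466 against 0 to 0.0608), Slc7a11 (1.63 against 0.547 to 0.703), Sod2 (151 against 90.9 to 100.3) and Tnfrsf1b (152 against 66.1 to 67.7). It was the lowest in Stat6, at 72.2 CPM against 132 to 141 CPM. Part of these genes are LPS-induced, and what sets this library apart was not tested.

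The other untreated libraries that stood apart were library 2 in Lcn2 (2.80 against 1.40 to 1.53), Myc (17.0 against 26.6 to 27.9), Tfec (11.1 against 14.3 to 14.9) and Tlr2 (25.2 against 36.3 to 38.5), library 3 in Msh6 (33.0 against 23.4 to 23.8) and library 4 in Vcam1 (1.27 against 0.466 to 0.547). In the LPS group it was library 1 in Gbp2 (339.8 against 412 to 427), library 2 in Il16 (3.65 against 0.532 to 0.990) and library 4 in Il6ra (38.6 against 30.7 to 31.1), Rfc1 (31.4 against 47.9 to 49.6) and Ypel2 (2.23 against 1.13 to 1.30). Elsewhere it was untreated library 1 of wild-type cells in low M-CSF in Il23a (0.128 against 0), and untreated Trem2-/- libraries 1 and 3 in Klf4 (41.5 against 31.4 to 32.2) and Nod1 (0.8288 against 0.455 to 0.517).

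The LPS response in normal minus low M-CSF differed by the test of the difference itself in Ypel2 (log2 of 9.55), Pcmtd2 (3.89), Adm (-6.28), Upp1 (-5.10), Il23a (-4.77), Tnfsf9 (-4.69) and Mmp13 (-3.25). Ypel2, Adm and Upp1 have a group at 0 counts, so the sizes of their fitted values depend on the prior count. The response of wild-type minus Trem2-/- cells in normal M-CSF differed in Akap1 (2.19), Tm9sf4 (1.52), Csf1 (1.5), Nod1 (-1.92), Tnfsf10 (-1.83), Mmp13 (-1.77), Fos (-1.76), Klf4 (-1.70) and Casp8 (-1.61). In no case did a genotype difference pass with libraries summed in pairs.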

How the results depend on the processing

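The LPS response gave 1406 higher and 1188 lower genes with libraries summed in pairs, which leaves 2 a group, against 2053 and 2008. The split of calls moved by less than 10 percentage points under every scaling, filter and tool run, but its balance turned to more lower genes, with 1825 higher and 2273 lower with RLE factors, 1934 and 2542 with DESeq2, 1944 and 1987 with no low-count filter and 2129 and 2269 with the compared groups alone. Leaving out 1 library gave 1780 to 1922 higher and 1719 to 2022 lower. Lower genes were the more numerous without any 1 untreated library, and higher genes without any 1 LPS library. Of 331 called genes named by the rules, 261 were called in every setting, and Casp8, not called in the full set, rose by 0.48 with libraries 2 and 4 only and was called. The difference by medium turned likewise to 1215 and 1359 with RLE factors and 1446 and 1533 with DESeq2. It gave 471 higher and 382 lower with summed pairs, and 1306 to 1447 and 1009 to 1145 with 1 library left out. The difference by genotype depended most on the setting, from 23 higher and 37 lower to 86 and 108 with DESeq2, 43 and 59 with no low-count filter, 51 and 69 with the compared groups alone, 0 and 0 with summed pairs, 711 and 312 with libraries 1 and 3 only, 173 and 648 with libraries 2 and 4 only, and 9 to 29 and 19 to 36 with 1 library left out. The cause of these changes was not tested, beyond the smaller number of samples or genes that some of them use.

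With the replicate number as a block, the LPS response gave 2019 higher and 1944 lower, with 6 ribosomal protein genes higher in place of 7, the difference by medium 1374 and 1171, and the difference by genotype 19 and 28. The labels give same-numbered samples only a shared number and do not say whether they share more. Same-numbered LPS and untreated libraries deviated together with correlations of 0.264, 0.333, 0.103 and 0.093, and 3 of 4 LPS libraries correlated best with their own number. Depth limits genes of a few counts, whose fold changes are given as bounds or with counting intervals.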
